A study of Rattus norvegicus with 18 samples.

Results

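Immediate early genes are the first genes that a cell transcribes after a stimulus. The 10 examined here, chosen by name from a fixed list of mouse Ensembl identifiers, were Fos, Fosb, Jun, Junb, Atf3, Egr1, Nr4a1, Ier2, Dusp1 and Sik1, and all 10 were present among the 55335 identifiers of the count table and passed the filter on low counts. Polyadenylated RNA of whole kidney was sequenced in 18 libraries, with 6 animals in each of 3 groups. The treated animals (Treat) were diabetic nephropathy animals dosed orally with TSK for 4 weeks (500 mg/kg daily), an agent whose full name the labels do not give. The diabetic nephropathy animals (DN) had received a high-fat diet together with STZ injection (streptozotocin, a toxin of the insulin-producing beta cells), as had the treated animals. The control animals (Ctrl) had ordinary feed and solvent by gavage, so diet and STZ differed together between DN and Ctrl, besides a division among the controls described below. The labels give the organism as rat and no strain, age or sex, while the identifiers, and the builds that the submitters' processing notes name, are those of the mouse.

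Transcription of these genes needs no new protein, since the factors that act on their promoters are already present and are switched on by kinases. Serum response factor with its ternary complex partners acts through the CArG box, and CREB acts through the cyclic AMP response element TGACGTCA or its half-site TGACG. Fos and Jun family proteins pair to form AP-1, which binds TGANTCA. Products such as Dusp1 and Sik1 act back on the kinases and coactivators that carry the signal, and the transcripts are short-lived. In the kidney these genes are known to be induced by injury and by growth factor signals.

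The promoters of members with different behaviour in these libraries are shown first: Junb and Ier2, which were higher in DN than in Ctrl, Dusp1, which was not called in any comparison, and Sik1, which went the other way. They are the 250 bases before the annotated transcription start in the RefSeq rat table (GRCr8), which held 7 of the 10 members by symbol, and Fos, Jun and Atf3 were not matched. Capitals mark every match, on either strand, to the CArG box, TGACGTCA, TGANTCA, the Egr1 site GCGNGGGCG or TGACG, the last of which is also part of TGACGTCA.
Junb, chr19:40080876-40081125, plus strand: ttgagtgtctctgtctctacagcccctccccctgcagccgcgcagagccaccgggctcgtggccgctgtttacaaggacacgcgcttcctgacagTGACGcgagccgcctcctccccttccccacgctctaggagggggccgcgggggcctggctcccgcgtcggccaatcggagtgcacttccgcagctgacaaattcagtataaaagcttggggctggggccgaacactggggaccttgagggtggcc
Ier2, chr19:40399123-40399372, plus strand: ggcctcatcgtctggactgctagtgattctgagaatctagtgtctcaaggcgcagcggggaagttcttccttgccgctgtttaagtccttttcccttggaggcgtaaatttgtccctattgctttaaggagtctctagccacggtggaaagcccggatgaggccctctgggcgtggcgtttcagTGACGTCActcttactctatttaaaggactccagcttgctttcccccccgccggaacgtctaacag
Dusp1, chr10:17184603-17184852, plus strand: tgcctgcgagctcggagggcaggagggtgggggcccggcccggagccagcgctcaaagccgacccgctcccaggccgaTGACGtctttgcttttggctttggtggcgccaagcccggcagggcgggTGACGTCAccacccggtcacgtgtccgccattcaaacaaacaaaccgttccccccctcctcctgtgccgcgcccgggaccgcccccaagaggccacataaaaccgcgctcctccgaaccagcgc
Sik1, chr20:9958647-9958896, minus strand: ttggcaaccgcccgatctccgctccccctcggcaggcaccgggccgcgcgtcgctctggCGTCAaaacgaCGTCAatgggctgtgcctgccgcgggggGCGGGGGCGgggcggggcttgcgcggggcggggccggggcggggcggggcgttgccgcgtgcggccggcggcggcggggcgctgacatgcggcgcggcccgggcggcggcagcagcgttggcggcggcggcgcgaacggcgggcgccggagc
TGACGTCA stood 66 to 59 bases before the start in Ier2 and 124 to 117 bases before it in Dusp1, and 1.59% of 33469 rat promoters of this length held it. Junb held 1 TGACG, Sik1 held 2 on the opposite strand and Dusp1 held 1 besides its full element, against 18.2% of promoters with at least 1 match. GCGNGGGCG was found once in Sik1, and 4.29% of promoters held it. None of these 4 windows held a CArG box (1.497% of promoters) or TGANTCA (6.34%). Of the 3 matched promoters not shown, Egr1 held 2 CArG boxes and 2 TGACG, Nr4a1 held 1 GCGNGGGCG and 4 TGACG, and Fosb held no match to any of the 5 motifs. These are matches of letters in the labelled species, while the count identifiers are those of the mouse, and no binding was measured.

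Library totals were 22040987 to 28135824 counts in Treat, 25505257 to 35275498 in DN and 26312358 to 34140706 in Ctrl. The controls were not uniform. Control library 4 stood with all DN and treated libraries, at least 10-fold apart from the other 5 controls, at 6 identifiers, of which those 5 had 1 high and 5 low. When another control took its place the same search found 1 identifier for control library 1 and 0 for each other control. For 8 of the 10 immediate early genes control library 4 lay within the range of the other 5 controls. It was the highest control for Fos, at 3.03 CPM (read counts relative to the TMM-scaled library total) against at most 2.89 CPM in the others, and for Junb, at 10.5 CPM against at most 8.06 CPM. For both genes it was still below every DN and treated library. The labels give no sex, and whether these 6 identifiers are sex-linked was not tested, since the files do not name them. For 5 of the 6 controls, whatever difference they mark, a difference of sex included, cannot be told apart from diet and STZ in the values of DN and of Treat against Ctrl below.

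**Figure D1:**
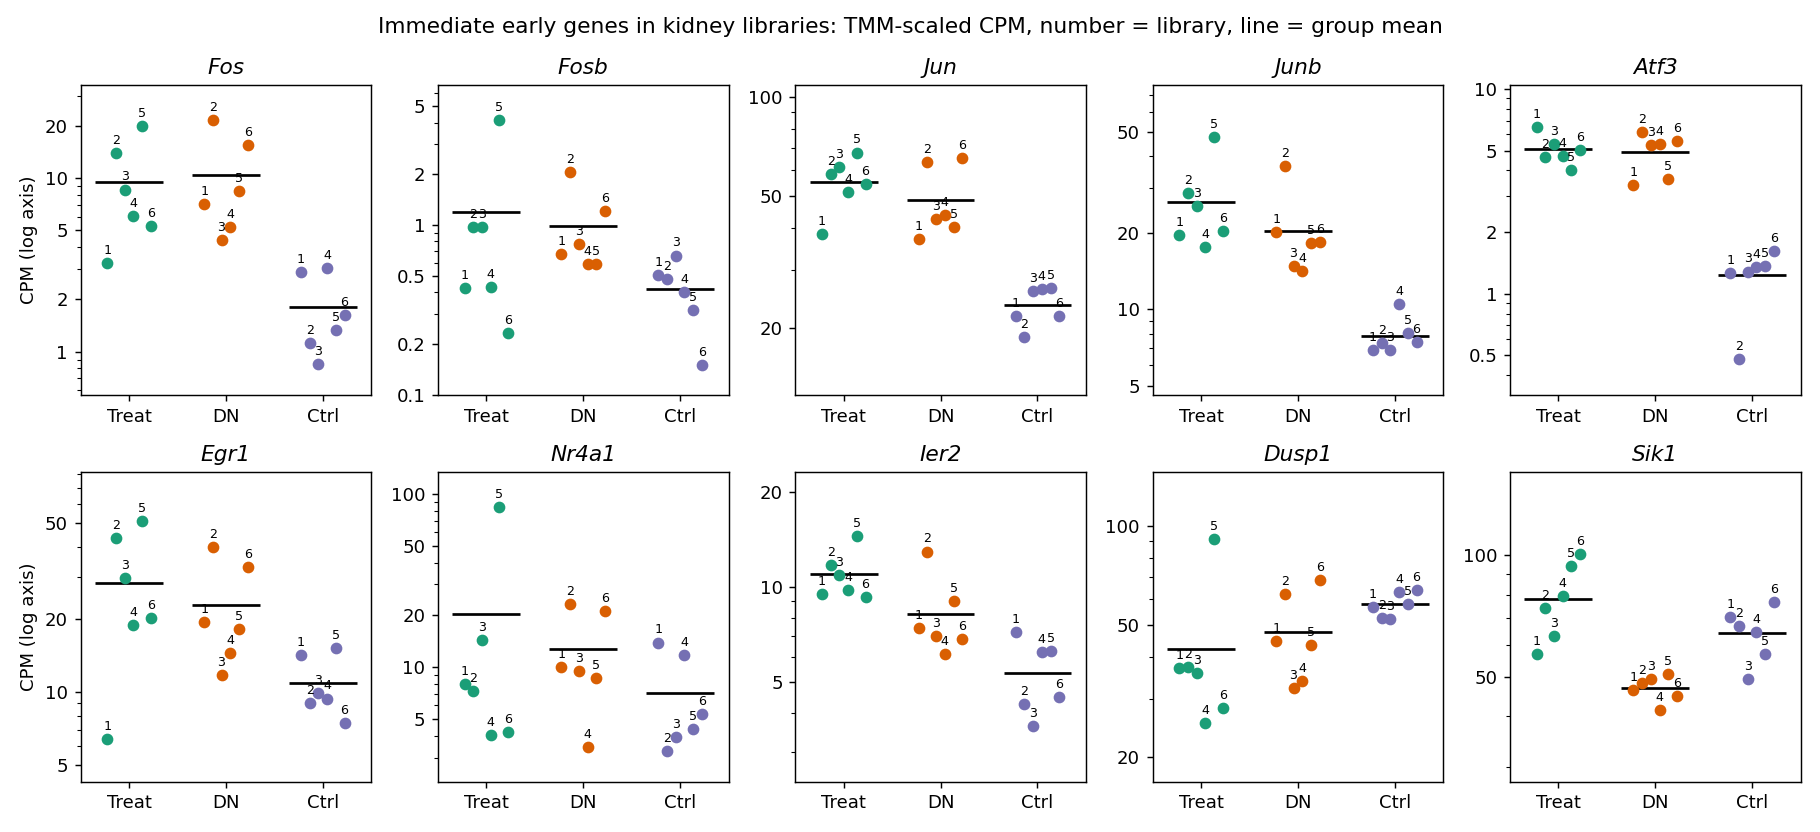
CPM of each immediate early gene (vertical log axis, scaled separately for each gene) in the 6 libraries of Treat, DN and Ctrl, with the library number beside each point and a line at the group mean. For Fos, Jun, Junb and Atf3 all Treat and DN points lie above all Ctrl points, and for Sik1 all Treat points lie above all DN points.

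Comparing DN with Ctrl asks how the kidney of the model animals differed. Of the 10 genes, 6 were higher in DN (Fos, Jun, Junb, Atf3, Egr1 and Ier2), 1 was lower (Sik1) and 3 did not pass (Fosb, Nr4a1 and Dusp1), by edgeR's quasi-likelihood test with a Benjamini-Hochberg adjusted p under 0.05 over 19233 genes. Among all genes tested 32.2% were called in this comparison, 16.9% as higher and 15.3% as lower. The median log2 fold change was 1.06 over the 10 members and 0.0079 over all genes, and the median size without regard to sign was 1.06 and 0.30. In whole tissue, fewer cells that express a gene and less RNA per cell cannot be told apart.

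The AP-1 subunits Fos, Jun and Junb and the related Atf3 were 4 of the 6 genes that rose. Fos (ENSMUSG00000021250), which needs a Jun partner to bind DNA, had a lowest, median and highest value of 4.42, 7.77 and 21.6 CPM in DN, against 0.843, 1.48 and 3.03 CPM in Ctrl. The 2 groups did not overlap, and Fos was 5.76-fold higher in DN (log2 fold change of 2.53 with an SE of 0.49, adjusted p = 0.000746). Jun (ENSMUSG00000052684), the partner that can also pair with itself, stood at 37.0, 43.2 and 65.4 CPM in DN, against 18.8, 23.9 and 26.4 CPM in Ctrl. It too was separated without overlap, with a 2.08-fold rise and a far smaller error (log2 fold change 1.06, SE 0.15, adjusted p = 6.04e-05). Junb (ENSMUSG00000052837), a Jun family member with weaker activating capacity than Jun, stood at 14.1, 18.3 and 36.8 CPM in DN, against 6.89, 7.40 and 10.5 CPM in Ctrl. Its groups did not overlap either, although DN library 2 alone held the value of 36.8 CPM and the next highest DN library 20.1 CPM (log2 fold change 1.37, SE 0.25, adjusted p = 0.00048).

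Atf3 (ENSMUSG00000026628), a stress-induced bZIP factor that can pair with Jun proteins, had the smallest p of the 10. It averaged 4.91 ± 1.12 CPM in DN and 1.23 ± 0.387 CPM in Ctrl (SD, n = 6 each), with a lowest, median and highest value of 3.40, 5.35 and 6.17 CPM in DN, against 0.481, 1.32 and 1.62 CPM in Ctrl. All 6 DN libraries lay above all 6 controls, and the rise was 3.99-fold (log2 fold change 1.996, SE 0.23, adjusted p = 5.04e-06). The libraries of DN and Ctrl did not overlap for 4 of the 10 members (Fos, Jun, Junb and Atf3, all higher in DN) and for 16.2% of all genes tested, with DN higher for 8.34% and lower for 7.89%. Fosb (ENSMUSG00000003545), a Fos family subunit, was sparse, with 15 to 51 counts per library in DN and 5 to 18 in Ctrl. Its values of 0.588, 0.723 and 2.06 CPM in DN overlapped those of 0.150, 0.441 and 0.660 CPM in Ctrl, although all 6 DN libraries exceeded the control median (log2 fold change 1.22, 95% interval -0.017 to 2.46, adjusted p = 0.121). Without treated library 5, which enters only the shared estimate of the spread, Fosb was called (adjusted p = 0.0357), as it was when the fit held only the 12 libraries of DN and Ctrl (adjusted p = 0.0253).

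Outside AP-1, Egr1 and Ier2 rose, and for both the groups overlapped. Egr1 (ENSMUSG00000038418), a zinc finger factor induced through serum response factor, stood at 11.7, 18.9 and 39.95 CPM in DN, against 7.45, 9.67 and 15.2 CPM in Ctrl. The overlap was at the edges of the groups (log2 fold change 1.07, SE 0.39, adjusted p = 0.0412). Its call was lost without any 1 of DN libraries 1, 2, 5 and 6 or control libraries 2, 3, 4 and 6, with adjusted p values between 0.0516 and 0.109, and also with no filter on low counts (adjusted p = 0.0682) and with robust dispersions (adjusted p = 0.0510). Ier2 (ENSMUSG00000053560), a nuclear protein of the early response, stood at 6.12, 7.21 and 12.95 CPM in DN, against 3.63, 5.36 and 7.21 CPM in Ctrl. Its rise was 1.54-fold (log2 fold change 0.62, SE 0.20, adjusted p = 0.0216), and it was not called without DN library 2 (adjusted p = 0.0629) or without control library 3 (adjusted p = 0.0522).

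Nr4a1 (ENSMUSG00000023034), an orphan nuclear receptor, varied widely in both groups. It stood at 3.47, 9.72 and 23.2 CPM in DN, against 3.27, 4.86 and 13.9 CPM in Ctrl. The ranges overlapped widely, and no difference was resolved (log2 fold change 0.83, 95% interval -0.60 to 2.27, adjusted p = 0.371). Neither of the feedback genes was called as higher. Dusp1 (ENSMUSG00000024190), a nuclear phosphatase that inactivates p38 and JNK kinases, averaged 47.6 ± 14.7 CPM in DN and 57.8 ± 5.02 CPM in Ctrl (SD, n = 6 each), with DN libraries from 32.4 to 68.3 CPM, around controls from 52.1 to 64.1 CPM (log2 fold change -0.28, 95% interval -0.82 to 0.25, adjusted p = 0.419).

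Sik1 (ENSMUSG00000024042), a kinase that holds the CREB coactivators of the CRTC family in the cytoplasm and is itself induced by CREB, was the member that fell. It stood at 41.4, 47.5 and 50.8 CPM in DN, against 49.5, 65.8 and 76.5 CPM in Ctrl. Every DN library was below the control median, with a small overlap at control library 3 (log2 fold change -0.45, SE 0.13, adjusted p = 0.0112). Its call held with each library left out in turn.

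When control library 4 was the only control compared, by an added coefficient for the other 5, 1 of the 10 genes was still called between DN and Ctrl. That gene was Atf3 (log2 fold change 1.86, adjusted p = 0.0344). Fos had a log2 fold change of 1.78 (adjusted p = 0.298), Jun of 0.89 (adjusted p = 0.101), Junb of 0.95 (adjusted p = 0.268), Egr1 of 1.28 (adjusted p = 0.378), Ier2 of 0.40 (adjusted p = 0.572) and Sik1 of -0.46 (adjusted p = 0.257). All 7 kept their direction. This fit rests on 1 control and called 986 of all genes, against 6202 with all controls.

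**Figure D2:**
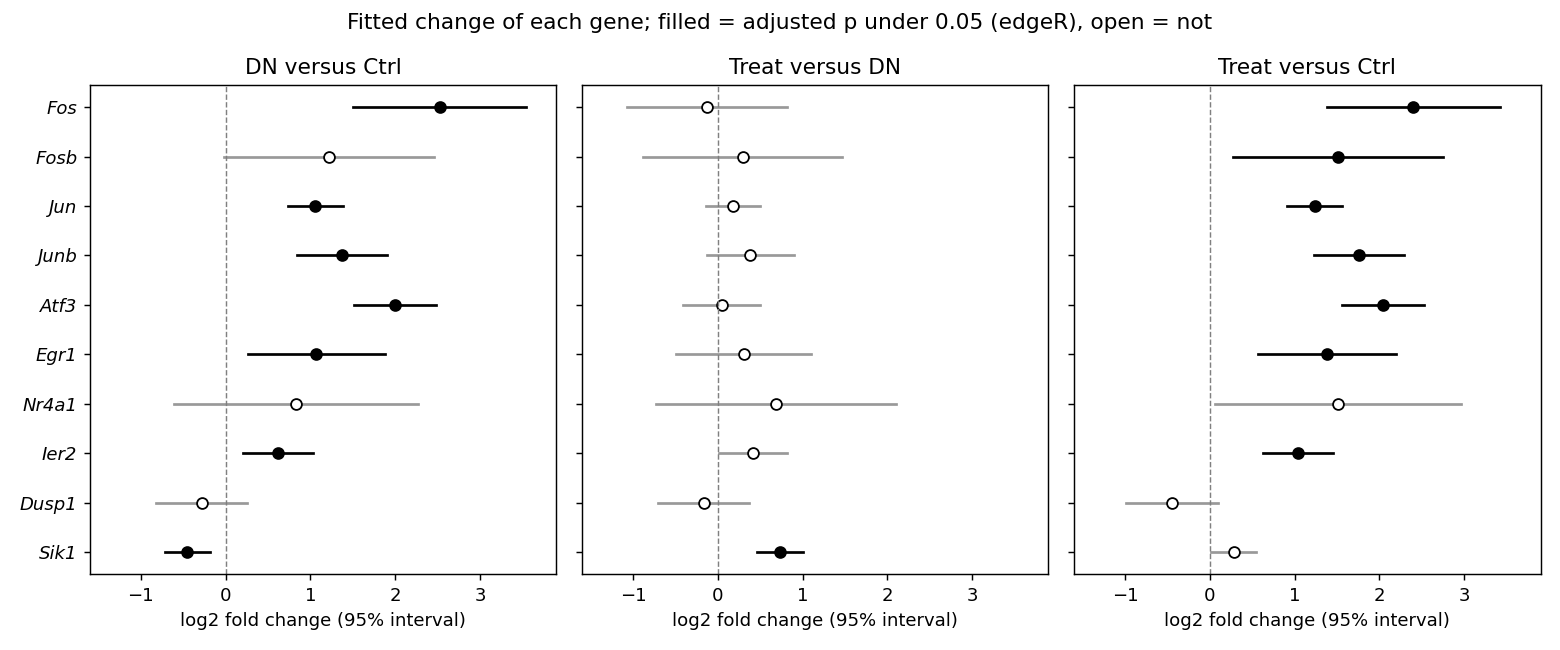
Fitted log2 fold change of each gene with its 95% interval in the 3 comparisons, with filled points for an adjusted p under 0.05 and open points otherwise. There are 7 filled genes for DN versus Ctrl, and Sik1 is the filled gene for Treat versus DN.

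The comparison between Treat and DN sets model kidneys with TSK beside model kidneys without it. Sik1 was the 1 member called, as higher in Treat, and the other 9 did not pass. Among all genes tested 1.39% were called, 0.536% as higher and 0.858% as lower. The median log2 fold change was 0.30 over the 10 members and -0.0051 over all genes, and the median size was 0.30 and 0.17. Without scaling factors the median of all genes was 0.13, and 84.4% of the called genes were higher in Treat, against 38.4% with TMM.

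Sik1 stood at 57.2, 76.8 and 101 CPM in Treat, against 41.4, 47.5 and 50.8 CPM in DN. All 6 treated libraries were above all 6 DN libraries, and Sik1 was the 1 member without overlap here, while 1.80% of all genes showed none (0.770% with Treat higher, 1.03% with Treat lower). Its mean was 78.1 ± 16.9 CPM in Treat and 46.9 ± 3.40 CPM in DN (SD, n = 6 each), which was 1.67-fold higher in Treat (log2 fold change of 0.74 with an SE of 0.13, adjusted p = 0.00789). The call held under all 28 alternatives tried, with adjusted p values from 1.06e-05 to 0.0265.

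Fos, Jun, Junb and Atf3, each called as higher than Ctrl in both groups, were not called between Treat and DN. Fos stood at 3.25, 7.34 and 20.04 CPM in Treat, against 4.42, 7.77 and 21.6 CPM in DN, so the 2 ranges nearly coincided (log2 fold change -0.12, 95% interval -1.07 to 0.82, adjusted p = 0.924). Atf3 stood at 4.02, 4.88 and 6.54 CPM in Treat, against 3.40, 5.35 and 6.17 CPM in DN. The groups overlapped over most of their ranges (log2 fold change 0.046, 95% interval -0.41 to 0.50, adjusted p = 0.943). Jun stood at 38.4, 56.5 and 67.8 CPM in Treat, against 37.0, 43.2 and 65.4 CPM in DN (log2 fold change 0.18, 95% interval -0.14 to 0.50, adjusted p = 0.588). Junb stood at 17.6, 22.9 and 47.9 CPM in Treat, against 14.1, 18.3 and 36.8 CPM in DN, with 5 of 6 treated libraries above the DN median (log2 fold change 0.38, 95% interval -0.13 to 0.89, adjusted p = 0.458). These intervals leave room for changes of either sign, so equality of the groups was not shown.

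Ier2 had the second smallest p among the members in this comparison. It stood at 9.31, 10.4 and 14.5 CPM in Treat, against 6.12, 7.21 and 12.95 CPM in DN. All 6 treated libraries exceeded the DN median, but the gene did not pass the adjustment over all genes (log2 fold change 0.42, 95% interval 0.0098 to 0.82, unadjusted p = 0.0452, adjusted p = 0.294). Egr1 stood at 6.39, 24.9 and 51.0 CPM in Treat, against 11.7, 18.9 and 39.95 CPM in DN (log2 fold change 0.31, 95% interval -0.49 to 1.10, adjusted p = 0.736). The treated libraries spanned both a lower and a higher value than any DN library.

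For Fosb, Nr4a1 and Dusp1 treated library 5 stood far above the other treated libraries. The treated mean with and without it was 20.3 and 7.56 CPM for Nr4a1, 1.20 and 0.605 CPM for Fosb, and 42.4 and 32.7 CPM for Dusp1. Nr4a1 stood at 83.8 CPM in that library and at 4.03 to 14.3 CPM in the other 5 treated libraries, against 3.47 to 23.2 CPM in DN. Its log2 fold change was 0.68 with all libraries (95% interval -0.73 to 2.10, adjusted p = 0.657) and -0.74 without library 5 (adjusted p = 0.505). Fosb stood at 4.17 CPM in library 5 and at 0.230 to 0.973 CPM in the other 5, against 0.588 to 2.06 CPM in DN. Its log2 fold change was 0.29 with all libraries (95% interval -0.88 to 1.46, adjusted p = 0.844) and -0.69 without library 5 (adjusted p = 0.486). Dusp1 stood at 90.9 CPM in library 5 and at 25.3 to 37.4 CPM in the other 5, against 32.4 to 68.3 CPM in DN. Its log2 fold change was -0.16 (95% interval -0.70 to 0.37, adjusted p = 0.801) and -0.54 without library 5 (adjusted p = 0.148).

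Comparing Treat with Ctrl asks what still set treated kidneys apart from control kidneys. It uses the same controls as the comparison of DN with Ctrl. Of the 10 genes, 7 were higher in Treat (Fos, Fosb, Jun, Junb, Atf3, Egr1 and Ier2), none was lower and 3 did not pass (Nr4a1, Dusp1 and Sik1). Among all genes tested 44.9% were called, 23.0% as higher and 21.9% as lower, and with library totals in place of TMM 64.5% of the called genes were higher, against 51.2% with TMM. The median log2 fold change was 1.45 over the members and 0.023 over all genes, and the median size was 1.45 and 0.37.

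Fos, Jun, Junb, Atf3 and Ier2 (5 of the 10) had all 6 treated libraries above all 6 controls, which was so for 11.5% of all genes, while 13.2% had all treated libraries below all controls (24.7% without overlap in all). Fos averaged 9.55 ± 6.34 CPM in Treat and 1.80 ± 0.928 CPM in Ctrl (SD, n = 6 each), 5.28-fold higher (log2 fold change 2.40, SE 0.49, adjusted p = 0.000699). Atf3 averaged 5.06 ± 0.855 CPM in Treat and 1.23 ± 0.387 CPM in Ctrl, 4.12-fold higher (log2 fold change 2.04, SE 0.23, adjusted p = 2.5e-06). Junb was 3.38-fold higher (log2 fold change 1.76, SE 0.25, adjusted p = 3.26e-05) and Jun 2.36-fold higher (log2 fold change 1.24, SE 0.16, adjusted p = 8.04e-06). Ier2 averaged 11.0 ± 1.96 CPM in Treat and 5.35 ± 1.41 CPM in Ctrl, 2.05-fold higher (log2 fold change 1.04, SE 0.20, adjusted p = 0.000409). Against control library 4 alone, the log2 fold change was 1.65 for Fos, 1.07 for Jun and 1.34 for Junb. It was 1.91 for Atf3, 0.81 for Ier2, 1.59 for Egr1 and 1.57 for Fosb. This fit rests on 1 control.

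Egr1 rose 2.60-fold over Ctrl (log2 fold change 1.38, SE 0.39, adjusted p = 0.00786), although treated library 1, at 6.39 CPM, lay below every control. Fosb averaged 1.20 ± 1.49 CPM in Treat and 0.419 ± 0.175 CPM in Ctrl, and only 3 of 6 treated libraries exceeded the control median (log2 fold change 1.51, SE 0.59, adjusted p = 0.0438). Leaving out treated library 5 gave 0.53 on the log2 scale (adjusted p = 0.363). Its call was also lost without treated library 2 or 3, DN library 1, 3 or 6, or control library 1, 2, 4, 5 or 6, with adjusted p values from 0.0502 to 0.0913, and with no filter (adjusted p = 0.0720), with the 12 libraries compared (adjusted p = 0.0645) and with voom quality weights (adjusted p = 0.0741).

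Dusp1 averaged 42.4 ± 24.3 CPM in Treat and 57.8 ± 5.02 CPM in Ctrl (log2 fold change -0.45, 95% interval -0.98 to 0.090, adjusted p = 0.166). Treated libraries 1, 2, 3, 4 and 6, at 25.3 to 37.4 CPM, were below every control (52.1 CPM or more), and library 5, at 90.9 CPM, was above every control. Without library 5 Dusp1 was called as lower (log2 fold change -0.82, adjusted p = 0.00142). Nr4a1 missed the threshold (log2 fold change 1.52, 95% interval 0.065 to 2.97, adjusted p = 0.0828), with 0.093 (adjusted p = 0.895) without library 5 and 1.73 (adjusted p = 0.0495) without treated library 4. Sik1 averaged 78.1 ± 16.9 CPM in Treat and 64.2 ± 9.65 CPM in Ctrl (log2 fold change 0.28, 95% interval 0.017 to 0.55, adjusted p = 0.0773). It was called as higher without treated library 1 (adjusted p = 0.0195), treated library 3 (adjusted p = 0.0454) or control library 6 (adjusted p = 0.0482), as well as without control library 4 and treated library 1 together (adjusted p = 0.0255), with voom quality weights (adjusted p = 0.0413) and with library totals in place of TMM (adjusted p = 0.0157).

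**Figure D3:**
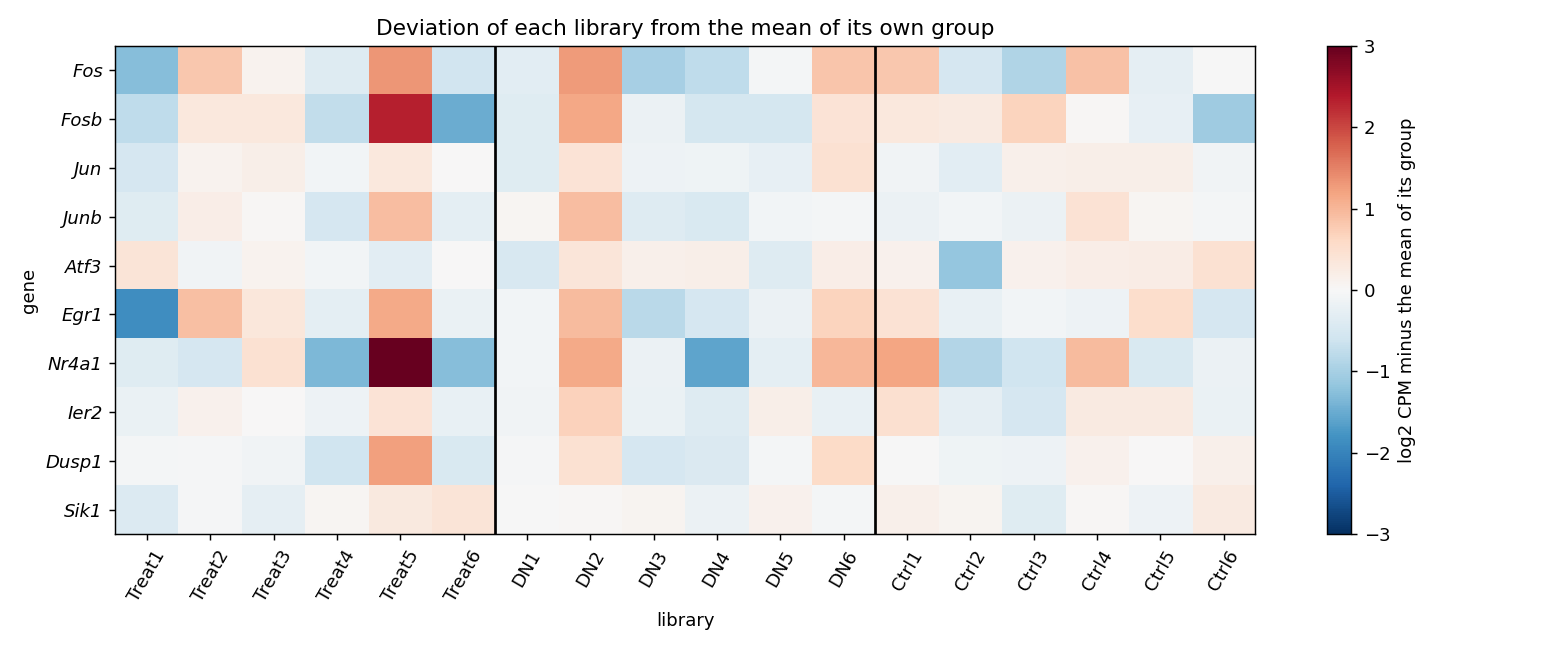
Deviation of log2 CPM from the mean of its own group for each gene (rows) and library (columns, Treat, DN and Ctrl from left to right), in red where a library is above and in blue where it is below. The columns of Treat5 and DN2 are red for most genes, with Atf3 blue in Treat5.

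Within a group, the same few libraries were high for most of these genes. Treated library 5 had the highest value of the 6 treated libraries for 8 of the 10 genes. For Sik1 it was the second highest, and for Atf3 it was the lowest at 4.02 CPM. DN library 2 was the highest of its group for 7 genes (Fos, Fosb, Junb, Egr1, Atf3, Ier2 and Nr4a1), and DN library 6 was the highest for Jun and Dusp1. In Ctrl no library was highest for more than 3 genes. Ranks were taken for the 10 members only, so how often each library was highest among all genes was not counted. The total of treated library 5, 25768253 counts, lay inside the range of its group, and DN library 2, with 25505257 counts, was the shallowest of its group.

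The genes differed in how far libraries of 1 group were spread. Nr4a1 had an SD of log2 CPM of 1.62 in Treat, 0.99 in DN and 0.86 in Ctrl, larger than in 98.5%, 95.8% and 92.6% of the genes tested. Fos had an SD of 0.95 in Treat, 0.89 in DN and 0.71 in Ctrl, larger than in 93.2%, 94.8% and 89.3% of genes. Sik1 lay at the other end in DN, with an SD of 0.11 (larger than in 7.60% of genes), against 0.32 in Treat and 0.22 in Ctrl. Dusp1 was even among controls, with an SD of 0.65 in Treat, 0.44 in DN and 0.12 in Ctrl. The median over all genes was 0.27 in Treat, 0.28 in DN and 0.21 in Ctrl.

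With group means removed, the members did not all follow one another. The r of a member with the mean of the other members was 0.0051 for Atf3 and 0.21 for Sik1. For the rest it lay between 0.70 (Fosb) and 0.90 (Fos). These values include treated library 5 and DN library 2, and were not recomputed without them. The gene outside the list whose log2 CPM, with group means removed, most resembled the mean of the 10 members over the 18 libraries was ENSMUSG00000020423. Its Pearson r was 0.910 and its Spearman rho 0.816, and r was 0.810 without treated library 5 and DN library 2, the farthest from the median. ENSMUSG00000044786 followed, with an r of 0.796, a rho of 0.688 and an r of 0.533 without those libraries. They were the closest of 19223 genes searched, so these values describe the choice and carry no test, and the files give neither identifier a name.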

How the data were processed

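Kidney polyadenylated RNA was measured in 18 libraries (6 Treat, 6 DN, 6 Ctrl), built with a SMARTER mRNA kit per the labels' protocols. The authors deposited raw counts per gene, without normalization. Per the submitters' processing notes the builds were GRCm38 and mm10. Aligner, counter, annotation release and strandedness were not given in the sources used here, so reads of overlapping antisense genes cannot be told apart, and reads of rat origin could be lost unevenly between genes. Levels are therefore not compared between genes. Libraries were matched to columns by their names, and groups were taken from the titles. Nothing in the labels marks a batch.

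The quasi-likelihood pipeline of edgeR 4.0.16 was run in R 4.3.3: filterByExpr (19233 genes kept), TMM scaling, 1 coefficient per group over all 18 libraries, and the quasi-likelihood F-test with Benjamini-Hochberg adjustment over all genes. Standard errors and 95% intervals came from the F statistics. log2 CPM used a prior count of 2. The common biological coefficient of variation was 0.273. The fit was tested on simulated data for DN versus Ctrl. It recovered 75 of 100 genes given a log2 fold change of 1 in size, so changes of that size can be missed. At a size of 2 it recovered 95 of 100. Both sizes were in 1 simulation, with 5 false calls among 18911 genes fitted. The changed genes were drawn from those averaging more than 1 CPM, so these rates need not hold for sparser genes such as Fosb. No other identifier had counts within 3% of a member's in every library.

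The members and lists were chosen with earlier results of these data known. All 10 members are named by rule. Another 15 lists of related genes and kidney cell markers (115 symbols) could not be matched, since 0 of 55335 identifiers are in the rat gene table, so neither the tissue label nor other pathway genes could be checked. The rule for similar genes took the highest Pearson correlation with the members' mean, with at most 2 identifiers where names were lacking.

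Alternatives were DESeq2 1.42.0, RLE size factors, other filters, library totals, fits of 12 libraries, the replicate number as a block, limma 3.58.1 voom with quality weights, robust dispersions, and left-out libraries. The coefficient that leaves control library 4 as the only control was added after the data had been seen. Same-numbered libraries did not deviate together (r from -0.189 to 0.185, over 0.1 in 2 of 18 pairs), and the main fit did not pair them. A correlation over all genes cannot show that the numbers carry no pairing.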

Additional observations from a re-analysis of the deposited data

Results flagged for a closer look

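Of 30 sets of 6 libraries (10 genes in 3 groups), 7 held a library whose gap to its nearest neighbour, as a share of the range, exceeded Dixon's critical value of 0.625. For normally distributed values chance flags about 1 in 20 sets. The values here were CPM without a log, and genes that share libraries are not independent, so this rate is only a guide. Treated library 5 was the high library for Nr4a1 (0.872), Dusp1 (0.816), Fosb (0.811) and Junb (0.635). DN library 2 was the high library for Junb (0.733), and control library 4 was the high library for Junb (0.677). Control library 2 was the low library for Atf3 (0.689), at 0.481 CPM against 1.26 CPM or more in the other controls. The causes were not tested.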

How the results depend on the processing

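With each library left out in turn, 5 to 8 of the 10 genes were called between DN and Ctrl (main value 7), 1 in every case between Treat and DN, and 6 to 8 between Treat and Ctrl (main value 7). Of all genes, those fits called 5103 to 6936 between DN and Ctrl (main value 6202). Between Treat and Ctrl they called 7909 to 8929 (main value 8629). With control library 4 as the only control compared, 1 and 2 of the genes and 986 and 1862 of all genes were called between DN and Ctrl and between Treat and Ctrl. This fit compares against 1 control. The replicate block called 6, 1 and 6 members in the 3 comparisons, without Egr1 between DN and Ctrl (adjusted p = 0.0665) and without Fosb between Treat and Ctrl (adjusted p = 0.155), and 2 of 18 libraries correlated best with one of their own number. With a filter of CPM above 1 in 6 libraries, Fosb was not tested. The number of all genes called between Treat and DN was 268, against 828 with DESeq2, 119 without a filter, 116 with the 12 libraries compared, 117 with the replicate block, 737 with voom quality weights, 775 with library totals and 593 without control library 4 and treated library 1. It was 97 to 446 with single libraries left out. The members called in that comparison numbered 1 throughout.

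Signs turned only for changes between Treat and DN that were not called. Under the replicate block Fosb had a log2 fold change of -0.16 and Nr4a1 of -0.017. With voom weights Fos had 0.077 and Atf3 -0.021, and without control library 4 and treated library 1 Fos had 0.079 and Atf3 -0.021. With single libraries left out the ranges were -0.48 to 0.22 for Fos, -0.69 to 0.64 for Fosb, -0.040 to 0.12 for Atf3 and -0.74 to 0.95 for Nr4a1. The cause was not tested. Fosb had the fewest counts of the members, with 5 in control library 6 and 6 in treated library 6.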
